A study of Mus musculus with 5 samples.

Results

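The 4 Hox clusters of mouse embryonic stem cells were examined for β-catenin ChIP-seq peaks. A peak was counted when its summit lay in 1 of 4 windows of the mm9 genome, which together span 970 kb and hold the Hox genes with their flanks. The windows were chr6:52050000-52300000 for Hoxa, chr11:96000000-96290000 for Hoxb, chr15:102700000-102920000 for Hoxc and chr2:74450000-74660000 for Hoxd. They held 50 of the 44750 deposited peaks. Merging of overlapping peaks gave 36 Hox regions of 33485 in the genome.

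The cells were V6.5 embryonic stem cells in which a knock-in adds biotin and 3xFLAG tags to the β-catenin gene Ctnnb1. The protocol names the line Ctnnb1-BioFLneo;BirA, and BirA is the enzyme that biotinylates the tag. All libraries carry this tagged line as their label, and cells without the tag were not analysed here. They grew in serum and LIF on feeder cells from DR4 mice and were separated from the feeders by plating, so the fraction was enriched for stem cells and not pure. Of the peak lists, 2 came from cells given CHIR99021, an inhibitor of the kinase GSK3, 1 captured with anti-FLAG and 1 with streptavidin. Its dose is 3 µM in the treatment protocol and 3 mM in the extract protocol. The other list came from cells given DMSO, the vehicle, and is labelled as streptavidin. The MACS header of that list names a biotin ChIP alignment, as the label does, while the run name and file name say FLAG. The labels' protocol gives 16 hours of treatment and the series text 24 hours. Each list stands for 1 library from 10000000 cells called against an input library. There is thus no spread between replicates, and no test across samples was possible. Intervals below are 95% intervals that cover counting error only and treat peaks or tags as independent.

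Hox genes encode homeodomain transcription factors that give cells their place along the head-to-tail axis. Their order on the chromosome follows the order in which they are switched on, with low-numbered genes such as Hoxb1 early and group 13 genes last. In undifferentiated stem cells most of them are held silent by Polycomb proteins. β-Catenin, the effector of canonical Wnt signalling, does not bind DNA itself and reaches chromatin mainly through TCF/LEF factors. GSK3 marks it for degradation. Wnt signalling is known to favour posterior fates in the embryo.

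A RefSeq gene table of a newer build (GRCm38) lists 39 Hox genes, 11 in Hoxa, 10 in Hoxb and 9 each in Hoxc and Hoxd. It was used for gene order only. With rising coordinates Hoxb goes from Hoxb13 to Hoxb1 between Ttll6 and Skap1, Hoxc from Hoxc13 to Hoxc4 between Calcoco1 and Smug1, and Hoxd from Hoxd13 to Hoxd1 between Evx2 and Mtx2. No mm9 gene positions were used here, so no peak is assigned to a gene, exon or promoter. Positions are given as kb from the window start, which is the end of lower coordinates.

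In CHIR99021-treated cells, 6 strong sites stood out, 3 in Hoxa, 2 in Hoxb and 1 in Hoxc. Both captures called each of them. Hoxd had no site of that strength. Around them lay weaker CHIR99021 sites, 5 called with both captures, 13 with streptavidin alone and 3 with anti-FLAG alone. Regions of streptavidin alone were 36.1% of the Hox regions, against 19.6% in the genome. Those of anti-FLAG alone were 8.33%, against 19.9%. These shares rest on 13 and 3 of 36 regions, and no interval was computed for them. With a fold of at least 10, 0 Hox regions were of streptavidin alone. DMSO peaks were present in all 4 windows. Of these 12 peaks, 3 lay in a CHIR99021 peak, against 15.0% of the whole DMSO list. The interval of the Hox share, 5.49 to 57.2%, contains that value.

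The anti-FLAG list had 14 Hox peaks, which is 14.4 per Mb (interval 7.89 to 24.2). Its density over the autosomes was 6.48 per Mb, so the windows were 2.23 times as dense (interval 1.22 to 3.74). The CHIR99021 streptavidin list had 24 Hox peaks, or 24.7 per Mb, against 6.43 over the autosomes. That is a ratio of 3.85 (interval 2.47 to 5.73). The DMSO list had 12, or 12.4 per Mb, against 5.23, a ratio of 2.37 (interval 1.22 to 4.14). Set against all peaks over the effective genome size of the MACS headers, the ratios were 1.68 (interval 0.918 to 2.82) for anti-FLAG, 2.90 (1.86 to 4.32) for streptavidin of CHIR99021 and 1.82 (0.939 to 3.17) for DMSO. A higher density in the windows thus lay outside the counting interval under both backgrounds for streptavidin of CHIR99021 alone.

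By window, the anti-FLAG peaks numbered 5 in Hoxa, 4 in Hoxb, 3 in Hoxc and 2 in Hoxd. The streptavidin peaks of CHIR99021 numbered 9, 8, 5 and 2 in the same order, and the DMSO peaks 2, 4, 2 and 4. The Hoxa window is 250 kb long. Among 9615 autosomal tiles of that length, 7.32% had 5 or more anti-FLAG peaks and 0.603% had 9 or more streptavidin peaks. In the windows of Hoxa and Hoxb, streptavidin capture gave 4 more peaks than anti-FLAG in each. An excess of 4 or more occurred in 0.530% of the tiles, and the opposite excess in 0.686%. The Hoxb window, at 290 kb, is longer than a tile. Tiles were not matched to the windows for peak density, and those without peaks were included, so these shares do not measure how unusual the excess is. With 2 peaks in each CHIR99021 list, Hoxd had the fewest CHIR99021 peaks of the 4 windows. Its window is 210 kb long. Of the tiles, 41.4% had 2 or more anti-FLAG peaks and 41.0% had 2 or more streptavidin peaks. For DMSO, 33.7% of the tiles had 2 or more peaks and 9.44% had 4 or more. For single windows the counting intervals were wide and overlapped.

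**Figure D1:**
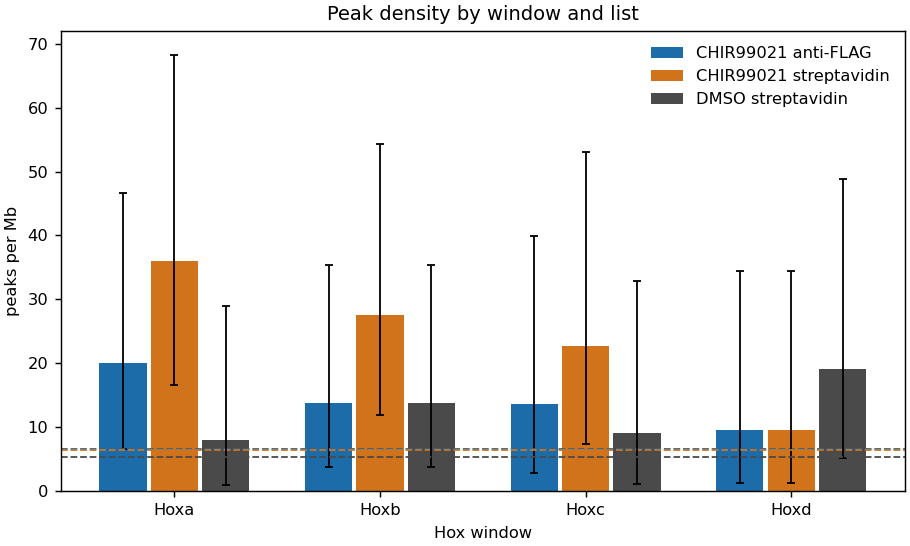
Peaks per Mb (y axis) in each Hox window (x axis) for the 3 lists, with bars for the value, whiskers for 95% Poisson intervals of counting error and dashed lines for the density of each list over the autosomes. Streptavidin peaks of CHIR99021 were densest in Hoxa at 36.0 per Mb, and the intervals of the lists overlap in every window.

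Of the 6 strong sites, those of Hoxa lay in the first of 4 equal parts of the window. The strongest, at 6.3 kb (chr6:52052484-52057330), had 292 anti-FLAG tags and 310 streptavidin tags, with fold enrichments over local background of 25.67 and 28.97. Here and below, fold enrichment and p score are the authors' MACS values and describe peaks within their own list. This site ranked 215 of 16069 anti-FLAG peaks by p score and 363 of 15947 streptavidin peaks. Its streptavidin peak was 4847 bp long and the anti-FLAG peak 2446 bp, while both summits lay within 12 bp.

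The next Hoxa site followed 9758 bp further on, at 16.1 kb (chr6:52065227-52067113). It had 156 anti-FLAG and 115 streptavidin tags, with folds of 18.6 and 17.52. The 3 strong Hoxa sites together held 85.1% of the anti-FLAG tags in Hoxa peaks and 72.4% of the streptavidin tags.

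In Hoxb the strong sites lay toward opposite ends of the window. The one at 51.7 kb (chr11:96050920-96052592), in the first of 4 equal parts and on the Hoxb13 side of the order, had 199 anti-FLAG and 232 streptavidin tags and folds of 24.06 and 30.45. The one at 236.4 kb (chr11:96235177-96236960), in the last part and on the Hoxb1 side, had 248 and 197 tags and folds of 29.58 and 29.76. Between them the anti-FLAG list had 1 peak and the streptavidin list 5, all under 50 tags.

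The only strong site of Hoxc was at 62.2 kb (chr15:102761646-102764160), in the second of 4 equal parts from the Hoxc13 side. It had 220 anti-FLAG and 171 streptavidin tags. Its folds of 32.52 and 34.76 were the highest of any Hox peak in either CHIR99021 list. It held 66.5% of the anti-FLAG and 53.9% of the streptavidin tags in Hoxc peaks.

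These 6 sites were told apart by having at least 100 tags in each list, a limit set after their values were seen. Of anti-FLAG Hox peaks 6 of 14 (42.9%) reached 100 tags, against 12.5% of the whole list. Of streptavidin Hox peaks it was 6 of 24, against 9.17%. Nothing lay near the limit, since the weakest strong site had 115 tags and the next Hox peak of that list 55. In the anti-FLAG list the gap ran from 156 down to 77 tags. Together the 6 sites took up 76.2% of the anti-FLAG and 64.5% of the streptavidin tags in Hox peaks.

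The same 6 were also in the top 10% of both lists by p score, where the lists as a whole hold 9.99% and 10.00% of their peaks. Their p scores spanned 432.17 to 1298.42 in the anti-FLAG list and 377.92 to 1134.81 in the other. Of anti-FLAG Hox peaks, 9 of 14 had a fold of 10 or more, against 32.9% of the list. Of streptavidin Hox peaks it was 9 of 24, near the 35.8% of that list.

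**Figure D2:**
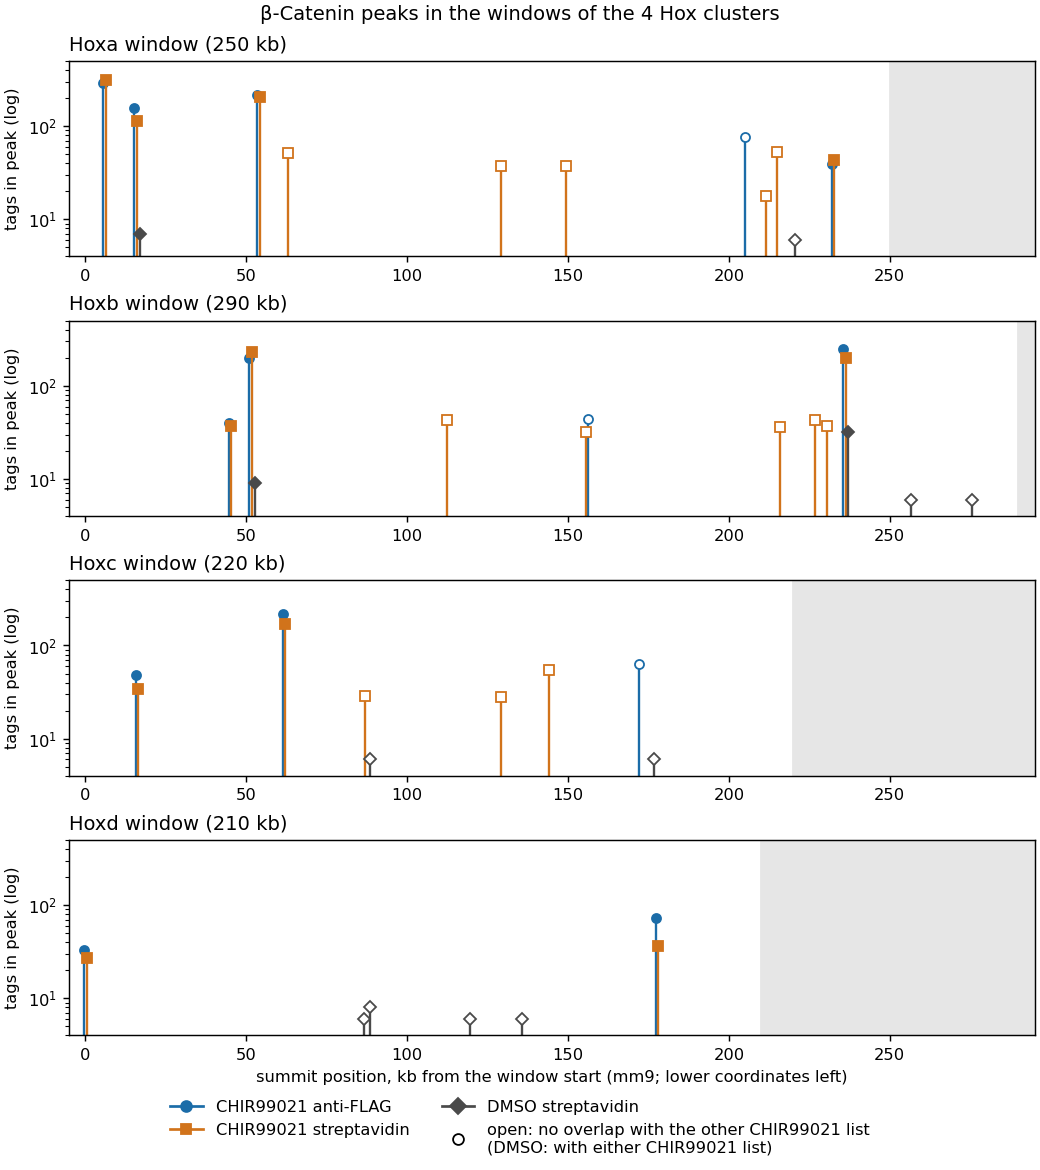
Tags in each Hox peak (y axis, log scale) by summit position in kb from the window start (x axis, mm9), 1 panel per window, with grey beyond the window end and symbols nudged sideways by list so that they can be told apart. Filled symbols of both CHIR99021 lists mark the shared sites, led by 292 and 310 tags at 6.3 kb in Hoxa, and open squares show the streptavidin peaks without an anti-FLAG partner.

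Beside the strong sites, 5 weaker sites were called with both captures. Hoxa had 1 at 232.8 kb, with 39 anti-FLAG and 43 streptavidin tags and folds of 9.61 and 9.6. Hoxb had 1 at 45.4 kb, with 40 and 37 tags and folds of 17.18 and 17.09. It lay 6297 bp before the strong site at 51.7 kb. The weaker Hoxc site, at 16.5 kb, had 48 and 34 tags with folds of 7.95 and 5.69, and its streptavidin p score of 51.69 was just above the cutoff of 50. At these 3 sites both captures stayed under 50 tags.

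Both CHIR99021 sites of Hoxd belonged to this weaker class. The one at 0.4 kb (chr2:74449860-74450759) lay at the very border of the window, with 33 anti-FLAG and 27 streptavidin tags and folds of 11.93 and 16.11. The other, at 178.2 kb (chr2:74627626-74628735), in the last part on the Hoxd1 side, had 72 and 36 tags and folds of 18.34 and 14.85. Between these sites neither CHIR99021 list had a summit for 177.8 kb by anti-FLAG and 177.7 kb by streptavidin. That was the longest such stretch in any of the 4 windows. For anti-FLAG, Hoxa came next with 151.7 kb.

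Both captures placed the summits of the 11 shared sites close together, at a median of 12 bp and at most 54 bp. Over all 9255 anti-FLAG peaks with a streptavidin partner the median distance to the nearest streptavidin summit was 42 bp. Those peaks had a median of 55 tags, against 156 anti-FLAG tags at the shared Hox sites. The distances were not matched for peak strength. Shared sites made up 11 of 14 anti-FLAG Hox peaks (78.6%, interval 49.2 to 95.3%), against 57.6% of the whole list. They made up 11 of 24 streptavidin Hox peaks (45.8%, interval 25.6 to 67.2%), against 57.8%. Both intervals contain the value of the whole list.

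Tag counts of shared sites were put on one scale by giving them per 1000000 unique tags of the library, called scaled tags here. Unique tags were 16100920 for anti-FLAG and 11934863 for streptavidin. Summed over the 11 sites, anti-FLAG gave 97.1 scaled tags and streptavidin 117.8, a ratio of 0.824 (interval 0.766 to 0.886) to which the strong sites contribute most. Site by site, the median ratio was 0.906, against 0.879 over the 9113 regions that both lists hold in the genome. For the 6 strong sites it was 0.859, against 0.840 over the 1296 regions with at least 100 tags in both lists. At single sites the ratio ran from 0.636 (interval 0.523 to 0.772), at 51.7 kb in Hoxb, to 1.48 (interval 0.980 to 2.28), at 178.2 kb in Hoxd. Those values sit at the percentiles 12.7 and 95.5 of all such regions. Anti-FLAG was higher at 3 of the 11, near the 31.5% of all such regions. The intervals of 2 sites, at 6.3 kb in Hoxa (0.593 to 0.822) and at 51.7 kb in Hoxb, lay below the genome median, and that of the Hoxd site at 178.2 kb lay above it. The other 8 intervals contained it. Called peak widths differed between the lists, and so did the fragment length d estimated by MACS, with 185 bp for anti-FLAG and 214 bp for streptavidin. Their part in these ratios was not tested.

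**Figure D3:**
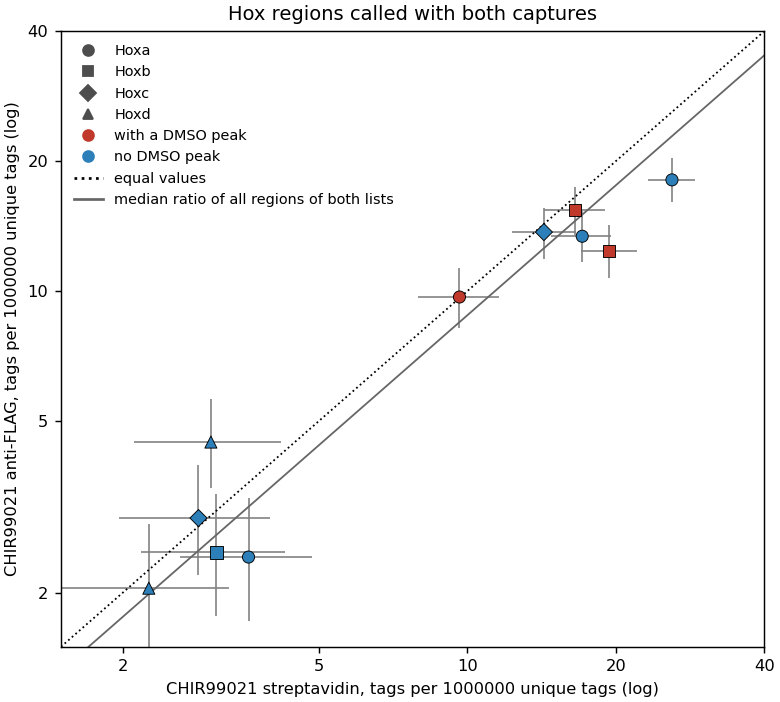
Scaled tags (per 1000000 unique tags) at the 11 Hox sites called with both captures, streptavidin on the x axis and anti-FLAG on the y axis (both log scales), with 95% Poisson intervals of counting error as bars, symbols by cluster and red for sites with a DMSO peak. The 6 strong sites lie at 9.64 or more by streptavidin and 9.69 or more by anti-FLAG, apart from the 5 weaker ones, which reach 3.60 and 4.47.

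Peaks of 1 capture alone were unequal in number. Streptavidin had 13 without an anti-FLAG partner, 5 each in Hoxa and Hoxb and 3 in Hoxc, and anti-FLAG had 3 without a streptavidin partner, 1 in each of those windows. Hoxd had none of either kind. Over the whole lists, 6731 of 15947 streptavidin and 6814 of 16069 anti-FLAG peaks had no partner. As stated above, the intervals of the Hox partner shares contain the values of the whole lists. In scaled tags the regions of 1 CHIR99021 list summed to 41.9 by streptavidin and 11.4 by anti-FLAG, while the 5 weaker shared sites summed to 14.8 and 14.4.

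The 13 streptavidin peaks formed a narrow class. They had 18 to 55 tags, folds of 4.06 to 8.69 and p scores of 53.86 to 114.73. Their median of 37 tags was above the 22 of all 6731 streptavidin peaks without a partner, and their median length of 1229 bp was above 750 bp. Their median fold of 6.05 was below 7.32. By tags they ranked at the middle of the list (median at the top 44.1%), and by fold near its end (top 83.8%). By these medians the class was longer and richer in tags than unpartnered peaks at large, and lower in fold.

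Within this class, the Hoxa peaks lay at 63.1, 129.2, 149.5, 211.4 and 215.0 kb. The one at 215.0 kb, with 53 tags and a fold of 8.69, was the highest of the 13 by fold and by p score. Those of Hoxb lay at 112.4, 155.7, 215.9, 226.8 and 230.5 kb. The last 3 led up to the strong site at 236.4 kb, whose nearest streptavidin neighbour was 5904 bp away. In Hoxc they lay at 86.9, 129.3 and 144.1 kb. The last had 55 tags, the most of the 13, at a fold of 4.41.

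The 3 anti-FLAG peaks without a partner were at 205.9 kb in Hoxa, with 77 tags and a fold of 5.33, at 157.2 kb in Hoxb, with 44 tags and a fold of 5.02, and at 173.0 kb in Hoxc, with 63 tags and a fold of 8.09. The Hoxb peak began only 335 bp after the end of the streptavidin peak at 155.7 kb, which had 32 tags. Those 2 peaks missed each other by less than their own lengths of 1057 and 1033 bp. The peaks of Hoxa and Hoxc were 3932 and 26390 bp from the nearest streptavidin peak.

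The larger number by streptavidin depended on the weak peaks. With a fold of at least 10, each capture had 9 Hox peaks, and all 9 of each had a partner. Both sets of peaks made up the same 9 merged regions. Over the whole lists at that limit the share was 74.2% for anti-FLAG and 68.4% for streptavidin. With so few Hox peaks and no interval given here, these shares cannot be set apart. With a p score of at least 100, anti-FLAG had 13 Hox peaks and streptavidin 11, so the order turned. This score was not matched for depth, with 16100920 unique tags for anti-FLAG and 11934863 for streptavidin. The turned order therefore does not rank the captures. In the genome, 42.2% of peaks by anti-FLAG and 38.9% by streptavidin reached that score. With each list cut to its best 12734 peaks, anti-FLAG had 14 and streptavidin 20.

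**Figure D4:**
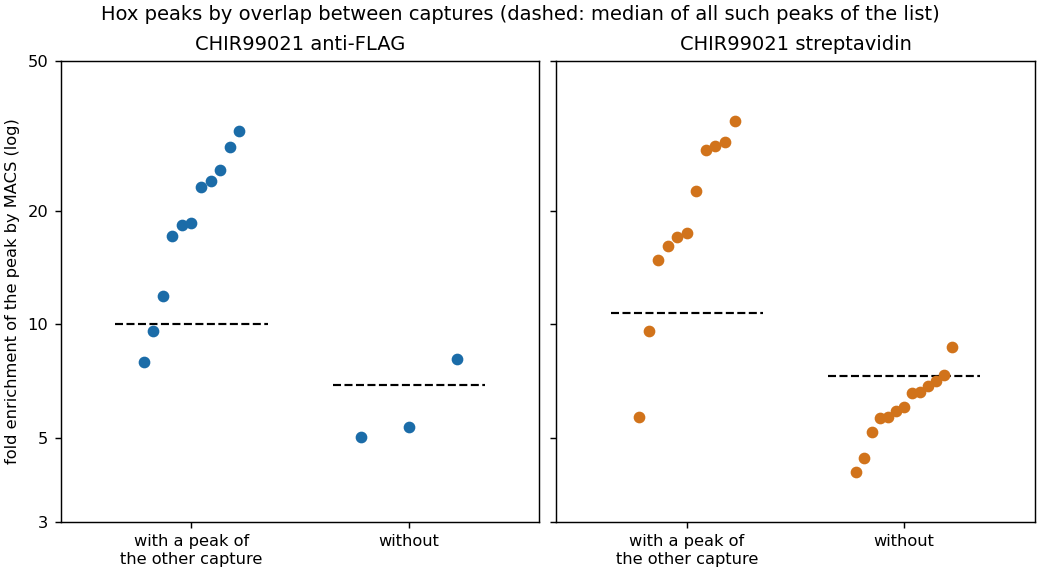
Fold enrichment of each Hox peak (y axis, log scale) for anti-FLAG and CHIR99021 streptavidin, split by whether a peak of the other capture overlaps it (x axis), with 1 point per peak and a dashed line at the median of all peaks of that kind in the list. All 13 streptavidin peaks without a partner have folds of 8.69 or less, and 9 of the 11 with a partner lie above 10 in each list.

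In DMSO-treated cells, 3 Hox peaks overlapped CHIR99021 peaks, and all 3 lay at strong sites. The site at 236.4 kb in Hoxb, on the Hoxb1 side, held the largest, with 32 tags over 348 bp, a fold of 27.65 and a p score of 247.68. It ranked 52 of 12734 DMSO peaks by p score, but its FDR of 13.46% was the highest of the 12 DMSO Hox peaks. Its summit was 159 bp from the anti-FLAG summit and 152 bp from the streptavidin summit. The Hoxb site at 51.7 kb held a DMSO peak of 9 tags, with an FDR of 3.24% and rank 9942, whose summit was 3 bp from the streptavidin summit. The Hoxa site at 16.1 kb held one of 7 tags, 58 bp from the anti-FLAG summit and 49 bp from the streptavidin one. That peak had the highest fold of the 12, 34.41, ranked 1273 by p score and had an FDR of 7.99%. At an FDR of at most 5%, only the DMSO peak at 51.7 kb was left of the 3. Yet the peaks lost, with p scores of 247.68 and 81.84, had the highest p scores of the 12. Those kept had p scores of 50.0 to 73.66. This FDR limit thus did not select the best-scored DMSO Hox peaks.

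DMSO peaks were thus present at 3 of the 11 shared Hox sites, against 12.9% of the 9113 shared regions of the genome. Among the 6 strong sites it was 3, and 44.1% of the 1296 shared regions with at least 100 tags in both lists held a DMSO peak. Among the 5 weaker sites it was 0, against 7.79% of the other shared regions. These shares lie near the background of regions of like strength. The strongest Hox site by tags in both lists, at 6.3 kb in Hoxa, and the strong site at 62.2 kb in Hoxc had no DMSO call. The header of the DMSO list holds no tag totals, so its depth is unknown and no limit can be put on tags at those sites.

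The other 9 DMSO peaks had 6 to 8 tags and lay outside CHIR99021 peaks. In all, 8 of the 12 had exactly 6 tags, the lowest count in the list, against 71.3% of all DMSO peaks. Of the 12, 3 (interval of the share 5.49 to 57.2%) overlapped a peak of either CHIR99021 list, against 15.0% of the whole list. The Hoxd window held 4 of the 9, at 85.8, 87.7, 118.8 and 134.9 kb. They all fell in the long stretch where both CHIR99021 lists had no summit, at least 42666 bp from any CHIR99021 peak. Their tags were 6, 8, 6 and 6, and their p scores of 50.0 to 54.14 were next to the cutoff. In Hoxc, the DMSO peak of 6 tags at 87.7 kb was 565 bp from the streptavidin peak at 86.9 kb. The DMSO list was called with a shift of 30 bp and its Hox peaks had a median length of 68.5 bp, so their number and tags cannot be set against those of CHIR99021 as a change in occupancy.

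Summed over the 4 windows, 7 of 14 anti-FLAG peaks lay in the first of the 4 equal parts of a window, 2 in the middle parts, and 5 in the last. The streptavidin peaks were spread over the parts as 7, 4, 6 and 7. The anti-FLAG peaks of the first and last parts held 56.3% and 28.6% of the anti-FLAG Hox tags, and for streptavidin these shares were 50.3% and 22.4%. The middle parts of Hoxd held no CHIR99021 peak, and those of Hoxa held 3 streptavidin peaks of 37 to 52 tags and no anti-FLAG peak. These are parts of the windows and not of the gene clusters.

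With windows widened by 50 kb, peak number rose most for DMSO, from 12 to 15. The Hoxb window then held 7 DMSO peaks in place of 4. The nearest DMSO peaks outside it had 6 tags each and lay 4.90 kb before and 18.7 kb after it. The same widening gave 16 anti-FLAG peaks in place of 14 and 26 streptavidin peaks of CHIR99021 in place of 24. Anti-FLAG peaks in Hoxa then numbered 7 in place of 5. The density ratio to the autosomes fell from 2.23 to 1.80 for anti-FLAG and from 3.85 to 2.95 for streptavidin of CHIR99021. For DMSO it fell from 2.37 to 2.10. Just inside, the Hoxd site at 0.4 kb had 33 and 27 tags. The nearest CHIR99021 peak outside was a streptavidin peak of 18 tags, 17.1 kb before the Hoxb window. Before the Hoxa window both captures had a peak, of 72 anti-FLAG tags at 21.2 kb and 65 streptavidin tags at 21.4 kb. Beyond the end of the Hoxd window, both captures had a peak 71.5 kb away, with 91 and 77 tags and folds of 17.46 and 23.0. Those tags exceed the tags of either Hoxd site inside.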

How the data were processed

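β-Catenin ChIP-seq gave 3 peak lists and 2 input libraries in 5 samples, with 1 library per group. The inputs served only in the authors' peak calls. Per the file headers, the authors called peaks with MACS on ELAND-format alignments, 1 ChIP library against 1 input, at a p-value cutoff of 1.00e-05. The build mm9 comes from the submitters' processing notes, with the MACS version not given in the sources used here. The deposited tag count is the whole number of tags in a peak. The deposited p score equals −log10 of the p-value multiplied by 10, the fold ratio is over local background, and the deposited FDR is in percent. The headers give 24829905 total tags for anti-FLAG and 19210345 for streptavidin of CHIR99021, and none for DMSO.

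A peak belonged to a window by its summit. Partners shared at least 1 bp, and peaks that overlapped or touched, in any of the 3 lists, were merged into regions. Densities used the span from first to last peak of each autosome, and tiles of 250 kb lay within these spans. Shares carry Clopper-Pearson intervals, counts Poisson intervals and tag ratios exact conditional binomial intervals. The windows, members and lists were chosen with earlier results of these data known. Regions held by 2 or more lists were to be named, and all others where no more than 40 regions were found, which was so. The code that assigns peaks to windows, overlaps and merges them was checked on simulated lists with known answers, and no chance test of the Hox counts was run. No mm9 genome or annotation was used here, so no sequence is printed. The gene order of Hoxa and 1 of its sites are not reported here. Alternatives changed membership, window width, thresholds, list length, overlap rule, depth and ranking. Scripts ran in Python 3.11.15 with pandas 2.3.3, numpy 2.4.6, matplotlib 3.10.9 and scipy 1.17.1.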

Additional observations from a re-analysis of the deposited data

How the results depend on the processing

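A fold of at least 10 left 9 anti-FLAG and 9 CHIR99021 streptavidin Hox peaks, with 91.7 and 111.4 scaled tags in place of 108.5 and 159.7. It left 18 merged regions of 36, of which 0 were of streptavidin alone in place of 13, gave an anti-FLAG density ratio of 4.45 and a partner share of 100% for each CHIR99021 list. A p score of at least 100 left 11 streptavidin peaks with 119.4 scaled tags, 1 DMSO peak with 32 tags, 14 merged regions, 1 of streptavidin alone and 1 of all 3 lists in place of 3. The density ratios were then 4.94 for anti-FLAG and 5.69 for DMSO, and the partner shares 90.9% for streptavidin and 100% for the single DMSO peak. At least 10 tags left 1 DMSO peak, with a partner share of 100% of that peak, and 1 region of all 3 lists. An FDR of at most 5% also left 1 region of all 3 lists, at 51.7 kb in Hoxb. That limit removed the DMSO Hox peaks of highest p score and kept those next to the cutoff. With 50% reciprocal overlap the DMSO share was 0, which follows from the short DMSO peaks. Windows widened by 50 kb gave 114.0 scaled anti-FLAG tags. With all tags as the depth, the scaled tags were 70.4 and 99.2. Among streptavidin peaks with a partner alone, the median was 115 tags in place of 40, and the median rank by p score the top 8.26% in place of 52.2%. Of 133 alternative values for the main results, 103 stayed within 1.5 times (counts) or within the interval (other values). Some of these could not change under their setting, such as raw DMSO tags under another depth. The count is therefore no measure of robustness. The merge without the DMSO list, added after seeing the data, gave 27 regions with 11 of both CHIR99021 lists. The order of both CHIR99021 lists by peak number turned at a p score of 100, a limit not matched for depth. The streptavidin partner share lay below its whole list in the main setting, at 45.8% against 57.8%. At a fold of at least 10 it lay above, at 100% against 68.4%. The interval of the main share, 25.6 to 67.2%, contains 57.8%. With only 9 peaks and no interval given, the share at a fold of 10 cannot be set apart from its list either. The DMSO share fell to 10.0% at an FDR of at most 5%, where no whole-list share is given here. Whether other shares changed direction against their whole list was not tested. No paired analysis was possible because every group is a single library. With 1 library per group and unknown DMSO depth, no change in occupancy can be stated.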
